A study of Mus musculus with 9 samples.

Results

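The enzymes that write, copy and erase cytosine methylation were read in chromatin of mouse T-cell lymphoma. They comprise 7 genes, taken as a named list rather than chosen by any measured value: Dnmt1, Uhrf1, Dnmt3a, Dnmt3b, Tet1, Tet2 and Tet3. All 7 were found among the 17492 protein-coding genes whose strand and transcript starts could be read from RefSeq annotation of GRCm38. The series held 9 libraries made by ChIPmentation, in which a transposase adds sequencing adapters to chromatin while it is bound to the antibody. All came from thymus of C57BL/6J mice carrying a MYCN-driven T cell lymphoma, and the labels name neither the transgene's promoter nor the age, sex or treatment of the animals. No healthy thymus or lymphoma without MYCN is among these libraries, so each value describes the tumour state only. One library was made with each of 7 antibodies, against the histone marks H3K4me3, H3K27ac and H3K27me3, the acetyltransferase p300, the transcription factor N-MYC, and EZH2 and SUZ12. The other 2 libraries were inputs without antibody and were not used here.

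DNA methylation in mammals sits mainly on cytosines followed by guanine. DNMT3A and DNMT3B place it on unmethylated DNA, DNMT1 copies it to the new strand after replication, and UHRF1 guides DNMT1 to sites methylated on the old strand only. The TET proteins oxidise the methyl group and so start its removal. DNMT3A and TET2 are recurrently mutated in human T-cell lymphoma and other blood cancers. H3K4me3 and H3K27ac mark active promoters, and H3K27ac also marks enhancers. EZH2 and SUZ12 belong to Polycomb repressive complex 2, which deposits H3K27me3, a mark of silenced genes, and the title of the series raises a role of EZH2 as an activator instead. The question here was which of these features were called at the 7 genes, and where.

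Each list held between 9798 peaks (N-MYC) and 123056 peaks (H3K27me3), and the number of reads behind a list is unknown. With 1 library per antibody there is no replicate error, so no difference below has a test or a replicate check, and counts are set beside the share of all 17492 genes with the same call. A gene without a peak is one where no call passed the authors' threshold, and a weaker signal there is possible. In bulk tissue, fewer cells carrying a feature and less of it per cell cannot be told apart. Of 15 T-cell markers listed, 10 were read, and 10 of 10 had both H3K4me3 and H3K27ac at a start, among them Cd3e, Lck and Bcl11b. Each mark alone was called at 52.9% of all genes. Both marks together were called at 1 of 5 B-cell markers read (Cd79a) and at 0 of 4 myeloid markers. They were called at 1 of 7 markers of thymic epithelium (Epcam), and at 0 of 3 markers of stroma and endothelium. The lists for B cells, myeloid cells, and stroma and endothelium held 8, 8 and 7 markers, and the rest were not read.

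Of the 7 genes, 6 carried H3K4me3 and H3K27ac, the marks of active promoters, together with p300 and EZH2. The remaining gene, Tet1, carried EZH2 together with SUZ12 and H3K27me3. A peak was counted at a gene when it overlapped the 1 kb on either side of any annotated start by at least 1 bp. By that rule, H3K4me3 was called at 7 of 7 genes, against 52.9% of all genes. H3K27ac and p300 were each called at 6 of 7, every gene but Tet1, against 52.9% and 41.3% of all genes. EZH2 was called at 7 of 7, against 47.0%. N-MYC was called at 4 of 7 (Dnmt3a, Dnmt3b, Tet2 and Tet3), against 34.7%, and was not called at Dnmt1, Uhrf1 or Tet1. SUZ12 and H3K27me3 were each called at 1 of 7, Tet1, against 13.3% and 25.2% of all genes.

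The 6 members with H3K27ac at a start, called the acetylated members below, held H3K4me3, H3K27ac, p300 and EZH2 without SUZ12 or H3K27me3, a combination found at 5413 genes, or 30.9% of all genes. Of those 5413 genes, 82.9% also had N-MYC, and so did 4 of the 6 members. EZH2, SUZ12 and H3K27me3 occurred together at 12.3% of all genes and at 1 member. Tet1's full set of calls, those 3 with H3K4me3 and without H3K27ac, p300 or N-MYC, was found at 333 genes, or 1.90%. Dnmt1 and Uhrf1 shared their set of calls with each other and with 5.30% of all genes. Dnmt3a, Dnmt3b, Tet2 and Tet3 shared theirs with 25.6%.

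**Figure D1:**
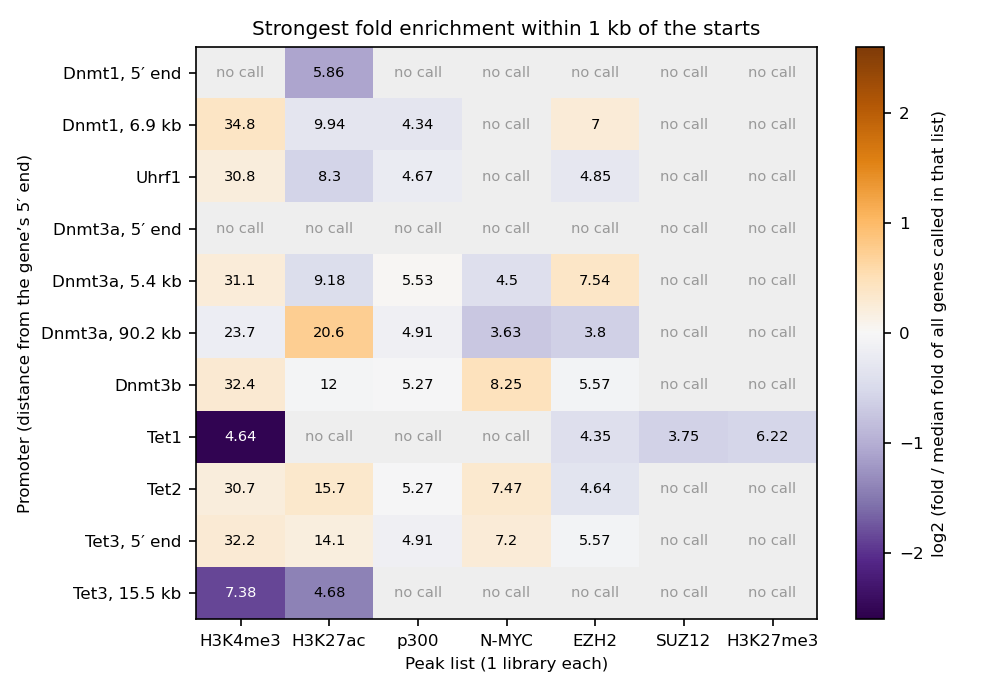
Strongest fold enrichment of each list (columns, 1 library each) within 1 kb of the starts of the 11 promoters of the 7 genes (rows, with the distance from the gene's 5′ end where a gene has several promoters). Colour gives the log2 ratio to the median of all genes called in that list, and grey cells had no call. The 5′ end of Dnmt3a is empty, and SUZ12 and H3K27me3 appear at Tet1 alone among the 7 genes.

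The promoters differ in sequence as well as in calls, and 3 stretches just before a gene's 5′ end are shown because they belong to contrasting sets of calls. They are RefSeq sequences of GRCm38.p6, printed 5′ to 3′ along the gene with every CG, the pair that DNA methylation acts on, in capitals. The Dnmt1 stretch (chr9:20959889-20960138, minus strand) lies before an upstream start with H3K27ac as its sole call. The Dnmt3b stretch (chr2:153649199-153649410, plus strand) precedes a start with H3K4me3, H3K27ac, p300, N-MYC and EZH2. The Tet1 stretch (chr10:62887470-62887574, minus strand) precedes the start with EZH2, SUZ12, H3K27me3 and a weak H3K4me3 call.
Dnmt1: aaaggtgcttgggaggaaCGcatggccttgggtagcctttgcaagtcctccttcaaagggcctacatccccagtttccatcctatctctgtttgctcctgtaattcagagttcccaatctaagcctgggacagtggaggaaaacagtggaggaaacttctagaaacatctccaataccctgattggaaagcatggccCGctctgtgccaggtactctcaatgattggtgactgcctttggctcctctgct
Dnmt3b: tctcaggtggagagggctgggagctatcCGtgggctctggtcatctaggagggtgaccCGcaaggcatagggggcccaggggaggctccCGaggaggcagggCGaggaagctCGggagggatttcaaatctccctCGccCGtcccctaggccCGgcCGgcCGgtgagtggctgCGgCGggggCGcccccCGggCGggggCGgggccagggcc
Tet1: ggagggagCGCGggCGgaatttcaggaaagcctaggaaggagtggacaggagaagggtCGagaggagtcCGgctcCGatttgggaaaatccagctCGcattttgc
The density of CG was 0.800 per 100 bases before Dnmt1, 7.55 before Dnmt3b and 6.67 before Tet1. In windows of 300 bases reaching from 250 before a start to 50 after it, the median over 21263 RefSeq windows was 13.0 CG pairs, with quartiles of 4.0 and 24.0. Of the 12 windows of the 7 genes in that table, 9 held more than the median. The fewest, 2, were at the upstream Dnmt1 start, and the most, 57, were at Tet2, more than in 99.8% of windows. At the internal Dnmt1 starts, where H3K4me3, p300 and EZH2 were called, the windows held 12 and 33, the latter more than in 88.7% of windows. The windows of a gene can overlap, so they are not independent.

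Dnmt1, the maintenance methyltransferase, lies on the minus strand of chr9:20907206-20959888 (52.7 kb) and has 3 annotated starts in 2 promoters. Dnmt1 is known to use a separate start in the oocyte, but the annotation used here does not name the transcript of each start. At the upstream start the H3K27ac list held 3 peaks, with fold enrichments over background of 2.55, 3.67 and 5.86, and no other list had a call. The strongest of them had its summit at −1979 bp from the start and reached into the window only with its edge. At the pair of starts 6.91 kb inside the gene, H3K4me3 reached a fold enrichment of 34.8, above 78.0% of the genes called in that list. There the fold enrichment of H3K27ac was 9.94, that of p300 was 4.34 and that of EZH2 was 7.0. The set of 4 calls at Dnmt1 thus lay at the internal starts and not at the gene's 5′ end. EZH2 at Dnmt1 was above 69.8% of the genes called for EZH2, whereas p300 was above 24.3% and H3K27ac above 35.7% of theirs.

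Uhrf1, which encodes the protein that recognises such hemimethylated sites, lies on the plus strand of chr17:56303337-56323486 (20.1 kb) with 2 starts 976 bp apart. Its H3K4me3 fold enrichment was 30.8, higher than at 64.9% of called genes. H3K27ac reached 8.30, the lowest of the 6 members called for it and higher than at 26.2% of called genes. The fold enrichments of p300, 4.67, and of EZH2, 4.85, were higher than at 32.8% and 29.2% of called genes. Like Dnmt1, Uhrf1 had no N-MYC peak at a start or anywhere in the gene. H3K27ac had its strongest summit at −400 bp from the first start, while H3K4me3 and EZH2 had theirs at 354 and 349 bp after it.

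The stretch before the first Uhrf1 start (chr17:56303087-56303336, plus strand) is shown because it held the only E2F-type match among the 12 windows. E2F factors drive genes of DNA replication, and the searched letters were TTCCCGCC, or GGCGGGAA on the other strand, given in capitals here.
Uhrf1: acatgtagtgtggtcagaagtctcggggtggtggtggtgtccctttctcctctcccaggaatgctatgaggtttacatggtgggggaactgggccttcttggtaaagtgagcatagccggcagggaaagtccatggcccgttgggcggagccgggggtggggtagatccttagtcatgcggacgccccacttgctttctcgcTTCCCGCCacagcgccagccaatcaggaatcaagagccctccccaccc
The match began 48 bases before the start and overlapped none of the other motifs searched. Among all 21263 windows 2.85% held these letters, and among the 6297 windows that met an N-MYC peak 5.13% did. A match of letters is a description and does not show that a factor bound. No list here profiled an E2F protein.

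Dnmt3a, one of the enzymes that set new methylation, is the longest of the 7 genes (chr12:3801559-3914443, plus strand, 113 kb) and has 3 promoters. Its 5′ end had no peak in any of the 7 lists. The promoter 5.42 kb inside the gene had H3K4me3 at a fold enrichment of 31.1, H3K27ac at 9.18, p300 at 5.53 and EZH2 at 7.54, together with 2 N-MYC peaks of 3.91 and 4.50. The promoter 90.2 kb inside had H3K4me3 at 23.7, H3K27ac at 20.6, p300 at 4.91, N-MYC at 3.63 and EZH2 at 3.80. Dnmt3a is known to make a shorter protein from an internal start, and the annotation used here does not say which start gives it. Both internal promoters therefore carried the same 5 calls, with different strengths. EZH2 at the first was above 77.3% of called genes, the highest standing of the 7 genes in that list. H3K27ac at the second was above 85.9% of called genes, again the highest of the 7. N-MYC at its best Dnmt3a promoter was above 20.2% of called genes, the lowest of the 4 members called.

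Before the start at 90.2 kb lies the one CACGTG among the 12 windows, the E-box bound by MYC family proteins with their partner MAX. The stretch (chr12:3891494-3891743, plus strand) is shown for that reason, with the E-box in capitals.
Dnmt3a: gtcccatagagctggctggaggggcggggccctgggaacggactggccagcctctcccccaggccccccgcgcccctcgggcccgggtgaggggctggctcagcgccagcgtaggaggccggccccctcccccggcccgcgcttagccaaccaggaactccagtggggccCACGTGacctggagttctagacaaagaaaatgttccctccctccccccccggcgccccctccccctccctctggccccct
This E-box began 80 bases before the start, inside the N-MYC peak with fold enrichment 3.63, and lay 131 bp from its summit, overlapping no other motif searched. CACGTG, which reads the same on both strands, was found in 7.84% of the 21263 windows and in 13.8% of the 6297 that met an N-MYC peak. The related letters CACGCG, with CGCGTG as their other strand, were found in 12.1% and 25.4% of these and in 1 of the 12 windows, before the second Uhrf1 start, where N-MYC had no call. The windows of Dnmt3b and Tet2, whose N-MYC peaks were stronger, held neither set of letters. Each window covers only part of its peak, and the rest was not searched. The Dnmt3b window (chr2:153649199-153649498) met only the edge of its N-MYC peak (chr2:153649438-153650084) and did not reach the summit. The window of Tet3 in the table lies at its internal start, which had no N-MYC call. The sequence at the 5′ end of Tet3 was not used here. GC boxes (GGGCGG, with CCGCCC as the other strand) stood in 10 of the 12 windows, against 46.2% of all windows and 74.5% of those that met an N-MYC peak. CCAAT, with ATTGG as the other strand, stood in 5 of the 12, against 38.2% and 37.0%.

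Dnmt3b, the second enzyme of this kind, lies on the plus strand of chr2:153649411-153687730 (38.3 kb), with 2 starts 38 bp apart. Its N-MYC fold enrichment of 8.25 was the highest within 1 kb of a start among the 7 genes and above 76.9% of called genes. H3K4me3 reached 32.4, H3K27ac 12.0, p300 5.27 and EZH2 5.57. These summits were close together at Dnmt3b: N-MYC lay 38 bp from p300 and 41 bp from EZH2, and all 5 lay between 183 and 487 bp after the gene's 5′ end. Compared with the strongest call of each list at any Dnmt3a start, Dnmt3b had the stronger N-MYC call and the weaker EZH2 and H3K27ac calls. H3K4me3 and p300 were of similar size. The Dnmt3a values of EZH2 and H3K27ac came from different promoters. At 5.42 kb H3K27ac of Dnmt3a was 9.18, below that of Dnmt3b, and at 90.2 kb its EZH2 was 3.80, also below.

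Tet1, the first of the 3 dioxygenases, lies on the minus strand of chr10:62804570-62887469 (82.9 kb), with 2 starts 145 bp apart. At its start H3K4me3 was weak, with a fold enrichment of 4.64, above only 3.17% of called genes, and a −log10 q of 7.78. The H3K27me3 peak there was 3508 bp wide with a fold enrichment of 6.22, above 31.0% of called genes. EZH2 had 2 peaks of 4.35 and 3.53, and SUZ12 had 2 of 3.75 and 3.31, both inside the H3K27me3 peak. Among genes called at a start, EZH2 at Tet1 was above 17.8% and SUZ12 above 12.7%. Against all peaks of its list, the H3K27me3 peak was higher in fold enrichment than 87.6% and wider than 95.2%, and its −log10 q was 19.9. No H3K27ac, p300 or N-MYC peak was called within 1 kb of a Tet1 start. The 3 H3K4me3 peaks in that region were 299, 610 and 326 bp wide and all lay inside the H3K27me3 peak. At the other 6 genes the strongest H3K4me3 peak was between 2952 and 4346 bp wide, against a median of 1655 bp in the list.

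Tet1 also had a site with H3K4me3, H3K27ac and p300 inside the gene. At 22.1 kb from the 5′ end lay an H3K4me3 peak of 2051 bp with a fold enrichment of 13.2, stronger than at the annotated starts. It met an H3K27ac peak of 10.3 and a p300 peak of 3.64, and neither EZH2, SUZ12, H3K27me3 nor N-MYC had a call there. A second H3K27ac peak of 9.16 lay at 28.7 kb. No start read here lies at that site, and whether a transcript begins there was not tested.

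Tet2, which is often inactivated in lymphoma of helper T-cell type in humans, lies on the minus strand of chr3:133463677-133545136 (81.5 kb), with 2 starts 746 bp apart. H3K4me3 reached a fold enrichment of 30.7 and H3K27ac 15.7, above 64.4% and 66.7% of called genes. N-MYC reached 7.47, above 69.4%, and its summit was 17 bp from that of p300 (5.27). EZH2 had 2 peaks of equal fold enrichment, 4.64, above 24.0% of called genes. Tet2 thus joined a fairly strong N-MYC call to a weak EZH2 call, the reverse of the Dnmt3a promoter at 5.42 kb. At the Dnmt3a promoter 90.2 kb inside, both calls were weak, 3.63 for N-MYC and 3.80 for EZH2.

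Tet3 lies on the minus strand of chr6:83362373-83457208 (94.8 kb) and has 2 promoters. At the 5′ end, fold enrichment was 32.2 for H3K4me3, 14.1 for H3K27ac, 4.91 for p300, 7.20 for N-MYC and 5.57 for EZH2. At the start 15.5 kb inside, H3K4me3 reached 7.38 and H3K27ac 4.68, and no other list had a call. The H3K4me3 peak at the 5′ end was the widest of the 7 genes, 4346 bp. N-MYC and EZH2 at Tet3 were above 66.6% and 44.9% of called genes.

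**Figure D2:**
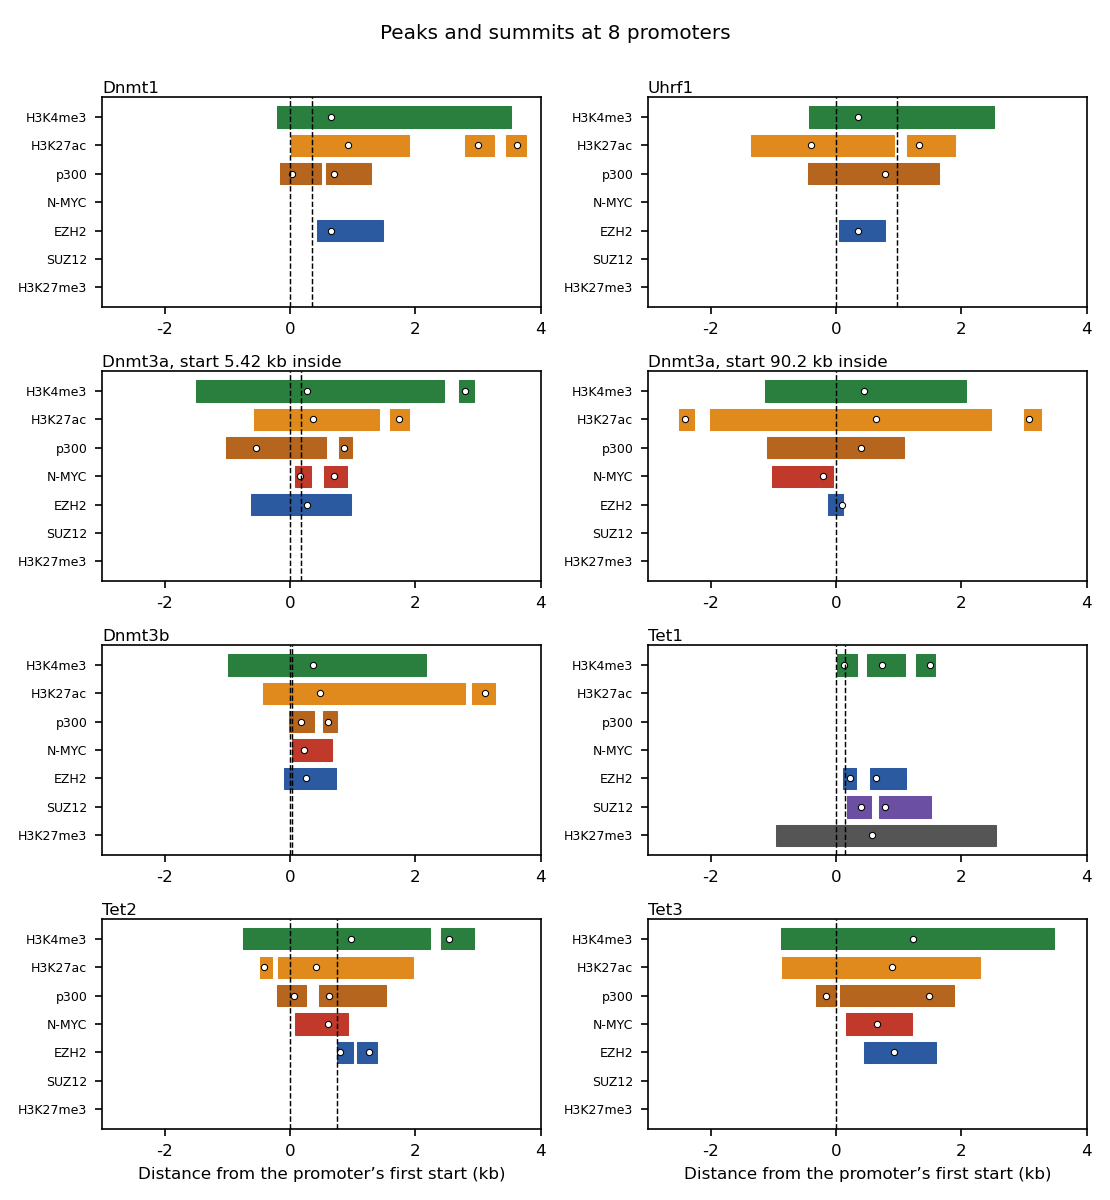
Peaks (bars) and summits (white points) of each list at the 8 promoters with EZH2, by distance in kb from the promoter's first start in the direction of transcription. Dashed lines are annotated starts. N-MYC is missing at Dnmt1, Uhrf1 and Tet1, and the Tet1 peaks of H3K4me3, EZH2 and SUZ12 lie within one wide H3K27me3 peak.

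Summits were compared at the promoters that held both lists of a pair. H3K4me3 and EZH2 were called together at 8 promoters, and their strongest summits were between 5 and 361 bp apart, with a median of 102.5 bp. At Tet1 the 2 H3K4me3 peaks, and at Tet2 the 2 EZH2 peaks, had equal fold enrichment, and the one first on the chromosome was taken. With the other peak of each such pair, the distance at Tet1 was 506 bp in place of 106 bp and that at Tet2 167 bp in place of 292 bp. Over these choices the largest distance was 361 to 506 bp and the median 102.5 to 195.5 bp. The distance was 6 bp at Dnmt1, 5 bp at Uhrf1 and 7 bp at the first internal Dnmt3a promoter. N-MYC and EZH2 shared 5 promoters, with distances from 41 to 654 bp and a median of 300 bp. The 654 bp was at Tet2 and was 195 bp with its other EZH2 peak, which left 435 bp as the largest and 275 bp as the median. N-MYC and H3K4me3 were 140 to 661 bp apart, with a median of 442 bp. The distance between N-MYC and p300 ranged most widely, from 17 bp at Tet2 to 1257 bp at the first internal Dnmt3a promoter, with a median of 603 bp. That promoter also held a weaker p300 peak of 4.05, with its summit 6291 bp from the gene's 5′ end. The strongest N-MYC summit lay near it, at 6131 bp. The largest distance and the median for this pair therefore depend on taking only the strongest peak of each list. Each distance rests on 1 library per list, and what sets it was not tested.

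Within each list the members were set against all genes with a call at a start. For H3K4me3 6 of 7 members were above the median fold enrichment of 26.6, and these 6 lay between 30.7 and 34.8, a narrow range near the upper quartile of 33.8. For H3K27ac the 6 members spread from 8.30 to 20.6 around a median of 12.4, with 3 above it. For p300 they lay between 4.34 and 5.53, and 1 of 6 exceeded the median of 5.40. For N-MYC 3 of 4 were above the median of 6.02, and for EZH2 2 of 7 were above 5.83. The acetylated members were therefore alike in H3K4me3 and p300 and spread most in H3K27ac and N-MYC.

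**Figure D3:**
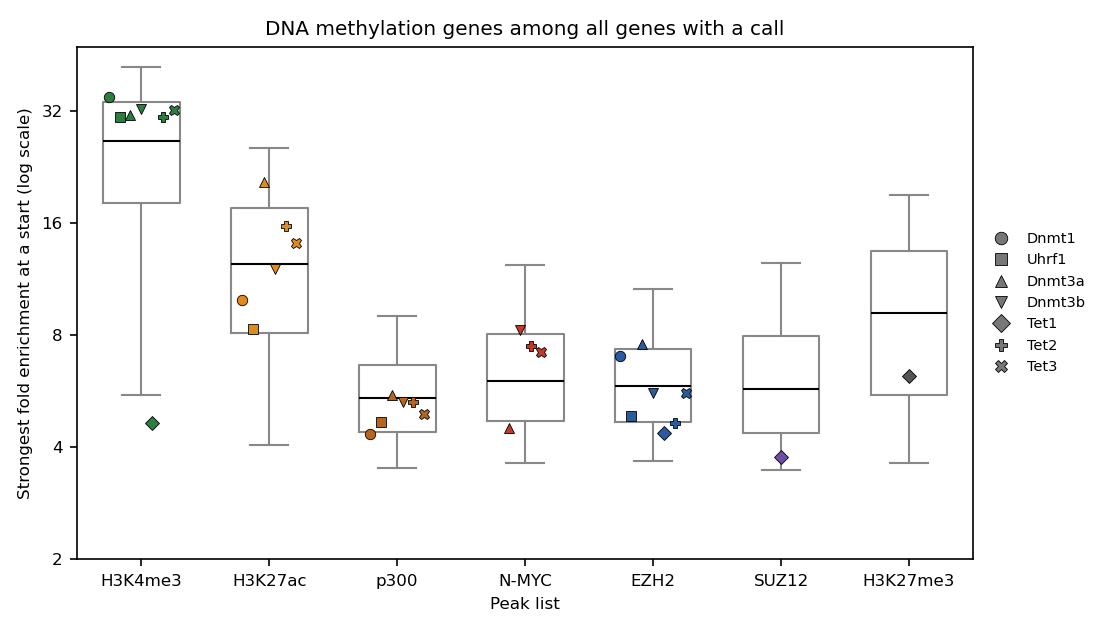
Strongest fold enrichment within 1 kb of a start (log scale) for each list. Boxes give median and quartiles of all genes called in the list, whiskers the 5 and 95 percentiles, and each marker is one of the 7 genes where it had a call. The 6 acetylated genes lie between 30.7 and 34.8 in H3K4me3, and Tet1 lies below the whisker at 4.64.

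Likeness between members was measured as the Euclidean distance between their log2 fold enrichments over the 7 lists, with a missing call set to 0 on that scale. The smallest distance, 0.33, was found between Dnmt3b and Tet3 and between Tet2 and Tet3, followed by 0.50 between Dnmt3b and Tet2. Dnmt1 and Uhrf1 were 0.62 apart. Dnmt3a was 0.99 to 1.26 from the other members with N-MYC. Its values joined H3K27ac from the promoter at 90.2 kb to the other calls from that at 5.42 kb. Neither promoter alone has that profile, here or in the comparison with all genes. Tet1 was 5.69 to 6.97 from every other member. A call present in only one of a pair adds its full log2 value, so the measure itself sets genes with unlike calls far apart. Only distances between genes with the same calls compare strengths.

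By the same measure over all genes, the nearest to Dnmt1 were Syngr2 (0.18), E130308A19Rik (0.22) and Casp8 (0.22). The nearest to Uhrf1 were Nt5m (0.13), Ankle1 (0.16) and Sap30l (0.16). For Dnmt3a they were Syvn1 (0.16), Cilk1 (0.18) and Usp24 (0.21). None of these is a DNA methylation gene of the list given below. Dnmt3b stood nearest to Trmt11 (0.19), Cisd2 (0.19) and Pes1 (0.20), and Tet2 to Zfp213 (0.12), Dhrs11 (0.12) and Tmem147 (0.22). Tet3 stood nearest to Hic2 (0.17), Uchl3 (0.17) and Net1 (0.18). The nearest to Tet1 were Plekhg1 (0.18), Adap2 (0.20) and Slc35e4 (0.23), which had the same 4 calls and no others.

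Peaks were next read over the whole gene bodies. H3K4me3, H3K27ac, p300 and EZH2 each had a body peak at 7 of 7 genes, against 55.0%, 58.5%, 43.2% and 46.9% of all genes. N-MYC had one at 4 of 7, against 36.2%, and the 4 were those with N-MYC at a start. SUZ12 and H3K27me3 had one at Tet1 alone, against 13.9% and 29.0% of all genes. Long genes hold more peaks. Body peaks over 1 kb from every start were therefore compared with 7915 genes of 20150 bp or more, the length of the shortest member. This floor does not match length, since the other members were 38.3 to 113 kb long. Away from starts, EZH2, SUZ12 and H3K27me3 had no peak in any member, against 12.3%, 10.7% and 33.2% of those long genes. H3K27ac had such a peak in 5 of 7 members (all but Uhrf1 and Tet2), against 49.8%. H3K4me3 had one in 4 of 7 (Dnmt3a, Tet1, Tet2 and Tet3), against 21.0%. At Dnmt3a and Tet2 that peak was narrow, 232 and 526 bp, with fold enrichments of 3.81 and 5.12. It lay close to the edge of the wide promoter peak, and whether it is a separate site was not tested. For p300 the count was 3 of 7 (Dnmt3a, Tet1 and Tet3), against 14.8%. N-MYC had one in 1 of 7, Dnmt3a, against 9.84%.

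The Tet3 body stood out by its acetylation. It held 51 H3K27ac peaks that together covered 40.2% of the gene, of which 48 lay away from starts with fold enrichments from 2.22 to 8.59. Some of these peaks almost touched, so their number depends on how the peak caller divided a region. The covered share was not compared with that of other genes. Counting all H3K27ac peaks in the body, at starts or away from them, the median long gene held 1. By the same count, 55 of all genes had more than Tet3. Per length, Tet3 had 5.38 peaks per 10 kb, more than 98.9% of the long genes. The peaks away from starts were modest in strength beside the 14.1 of the promoter. Among them lay 3 p300 peaks of 3.41 to 4.65, each of which met an H3K27ac peak. No EZH2 or N-MYC peak was called in the Tet3 body beyond the promoter. Tet2, of similar length, held 1 H3K27ac peak in its body, at the promoter.

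Dnmt3a held 17 H3K27ac peaks covering 22.6% of the gene, and 530 genes held more. Per length, it had 1.51 peaks per 10 kb, more than 83.2% of the long genes. Some of the peaks almost touched, as at Tet3. Of the 17 peaks, 3 were wide and lay far from every start. They were 4798, 3820 and 6257 bp wide, with fold enrichments of 14.2, 9.36 and 12.2, and had their summits 33.4, 53.8 and 70.4 kb from the 5′ end. Within the last of these lay an N-MYC peak (chr12:3870875-3871914) with a fold enrichment of 8.61, above 85.8% of all N-MYC peaks. It was the strongest N-MYC peak of the gene, against 4.50 at its best promoter. Its summit was 56 bp from that of a p300 peak of 5.61, and neither H3K4me3 nor EZH2 was called there. Dnmt3a held 4 N-MYC peaks in all. Among all genes 21 held more, and 57 others held at least as many. Per length, Dnmt3a had 0.354 N-MYC peaks per 10 kb, more than 87.5% of the long genes. Exon and intron positions were not used here, so the site is given by distance alone.

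**Figure D4:**
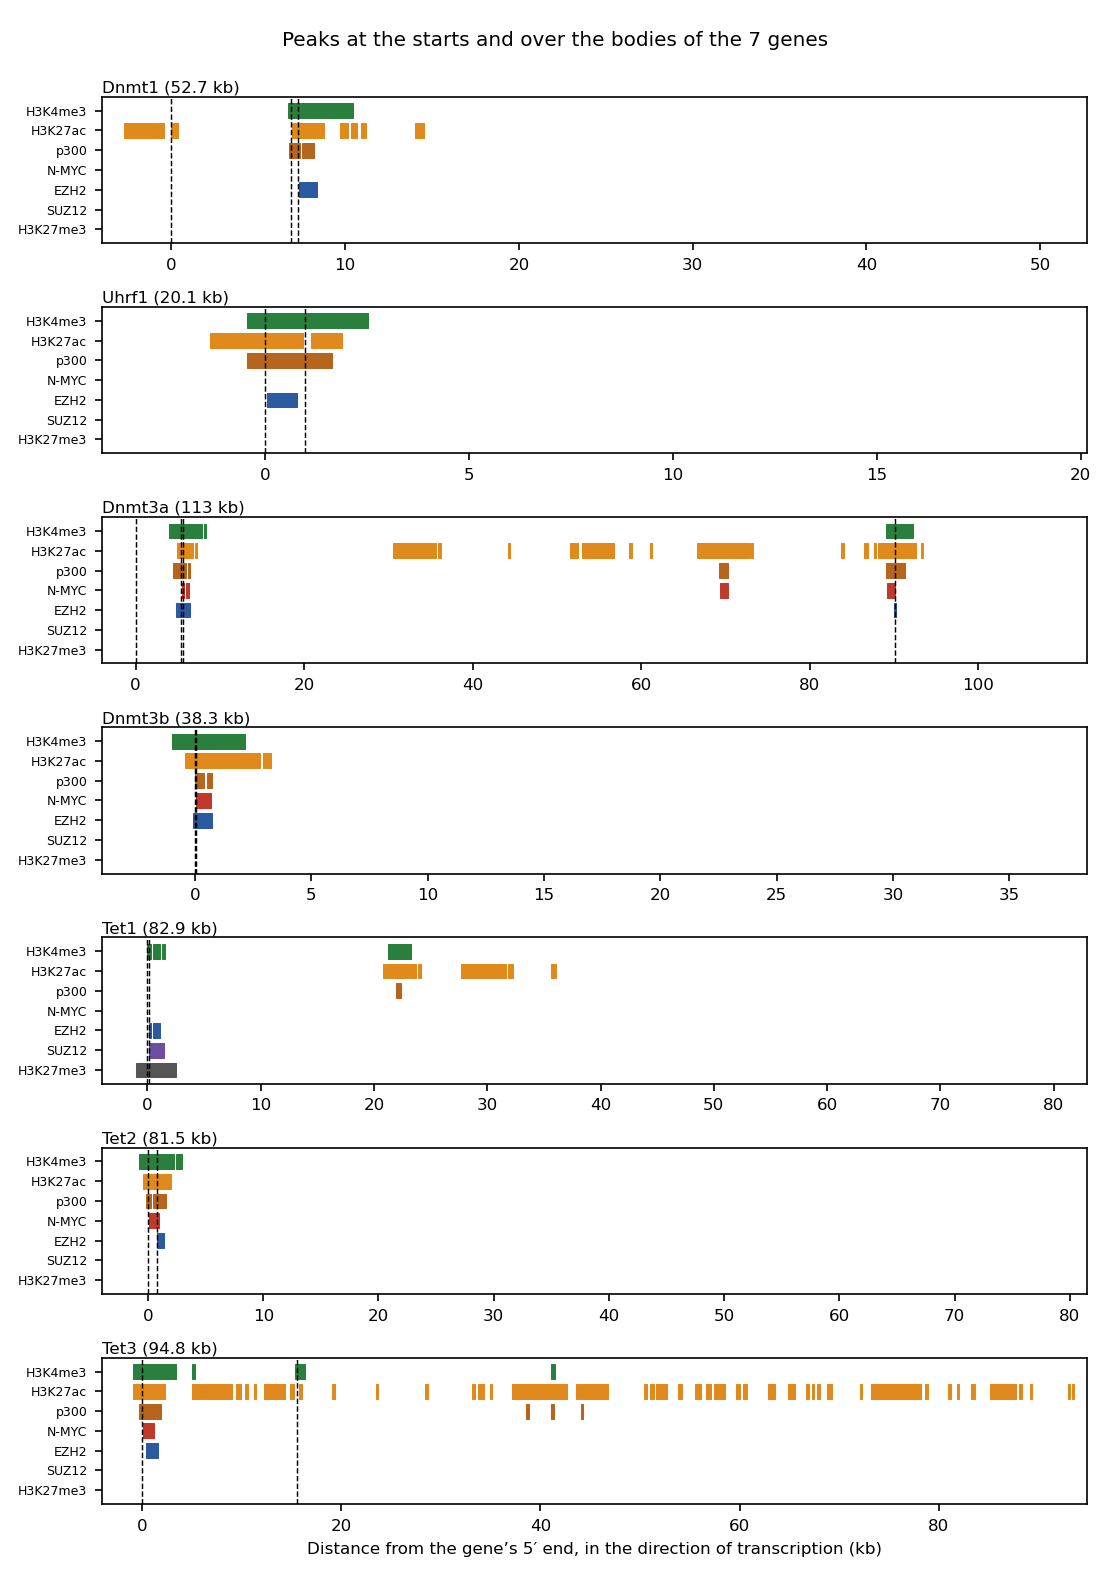
Peaks of each list (coloured bars, rows) over the 7 genes, by distance in kb from the gene's 5′ end in the direction of transcription, with annotated starts as dashed lines. H3K27ac fills 40.2% of Tet3 and 22.6% of Dnmt3a, whereas the Tet2 peaks all lie near its 5′ end.

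Other genes of DNA methylation were read the same way, from a list of 40 ordered by role, of which 33 had a strand and were read. At their starts H3K4me3 was called at 30 of 33 genes, H3K27ac at 30, p300 at 27, N-MYC at 23 and EZH2 at 29, and SUZ12 at 4 and H3K27me3 at 5. The share of all genes with each call, given above, was 52.9%, 52.9%, 41.3%, 34.7%, 47.0%, 13.3% and 25.2% in the same order, and the listed genes were not tested against it. H3K4me3, H3K27ac, p300 and EZH2 without SUZ12 or H3K27me3 were present at 22 of 33, against 30.9% of all genes, and 18 of these 22 had N-MYC, against 82.9%. EZH2, SUZ12 and H3K27me3 were all present at 4 of 33, against 12.3%. The median fold enrichment of the called genes was 30.8 for H3K4me3, 6.26 for N-MYC and 6.00 for EZH2.

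Of the 7 partners of maintenance methylation, all had H3K4me3, H3K27ac, p300 and EZH2 without SUZ12 or H3K27me3, against 30.9% of all genes. N-MYC was called at 5 of the 7, against 34.7% of all genes and 82.9% of the genes with that combination. The 2 without N-MYC were Hells, a chromatin remodeller, and Zbtb24, a zinc finger protein. Dnmt1, Uhrf1, Hells and Zbtb24 thus had the same set of calls. So did Idh2 and Ogt, listed as TET cofactors and regulators, and in all 5.30% of the genes read. All 3 genes of methyl donor supply had H3K4me3, H3K27ac, p300, N-MYC and EZH2 without SUZ12 or H3K27me3, as did 25.6% of all genes. Mat2a, which makes the methyl donor S-adenosylmethionine, had the highest N-MYC fold enrichment of the list, 13.8. The lowest, 4.12, was at Mbd4, a DNA glycosylase that also binds methylated DNA. Dnmt3l, the catalytically inactive partner of the DNMT3 enzymes known from germ cells, had no call in any list.

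SUZ12 or H3K27me3 was called at 5 of the listed genes. Cxxc4, a relative of the CXXC domain of the TET proteins, had EZH2 at 12.0, the highest of the list, with SUZ12 at 9.16 and H3K27me3 at 13.4, and no call in the other 4 lists. Zfp57, which protects imprints, had EZH2 at 6.33, SUZ12 at 4.97 and H3K27me3 at 10.0, also without H3K4me3. Both had stronger EZH2, SUZ12 and H3K27me3 calls than Tet1, and unlike Tet1 they lacked H3K4me3. Gadd45b, a stress-response gene tied to demethylation, had SUZ12 at 10.3 and H3K27me3 at 10.0 beside H3K27ac at 5.33 and N-MYC at 5.90. Smug1, a DNA glycosylase, had SUZ12 at 4.18 and H3K27me3 at 4.58 and was called in the other 5 lists too. Idh1, which makes the cofactor that TET enzymes use, had H3K27me3 at 9.02 without SUZ12. The lowest EZH2 fold enrichment of the list, 3.75, was at Trim28, the corepressor that works with Zfp57.

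**Figure D5:**
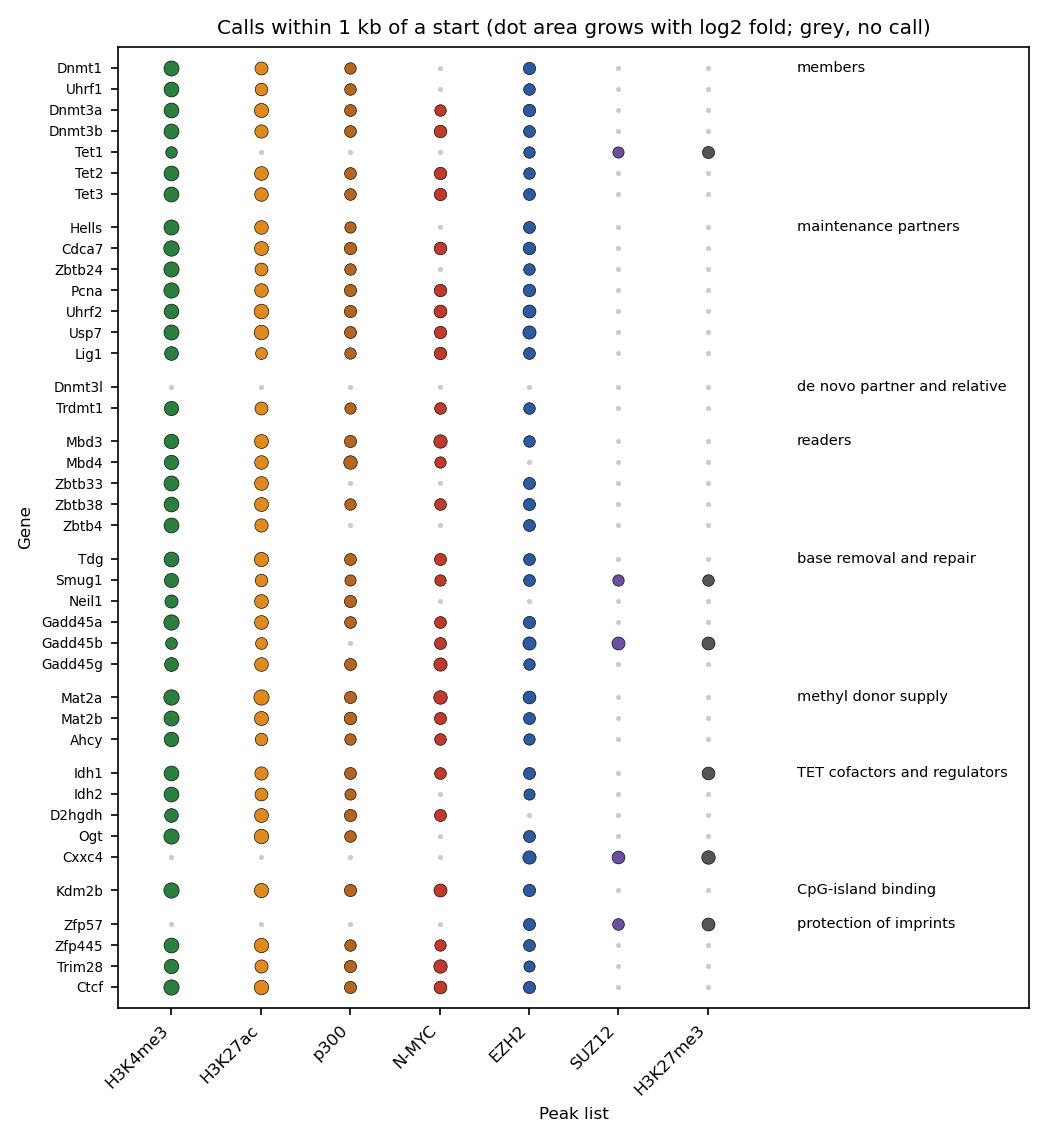
Calls within 1 kb of a start for the 7 genes (top) and the 33 other DNA methylation genes read, grouped by role (rows), in each list (columns). The area of a dot grows with the log2 fold enrichment and small grey dots are missing calls. SUZ12 appears at Tet1, Smug1, Gadd45b, Cxxc4 and Zfp57, and Dnmt3l has no call.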

How the data were processed

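Each immunoprecipitation had 1 deposited peak list. FastQC, Bowtie2, SAMtools, MACS2 and deepTools and the builds mm10 and GRCm38 are named in the submitters' processing notes; parameters, pooling, use of the inputs and the animal behind each library are not given in the sources used here. The fold enrichment of each peak is a linear ratio, taken as deposited by the authors. The p-value and q-value of a peak are −log10 values in the lists as deposited, and the smallest −log10 q was 2.00 to 2.08, so weaker sites are missing. Fold enrichment was compared within a list only, since antibodies differ.

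Starts were those of the RefSeq promoter table (GRCm38.p6) plus each gene's own 5′ end, and the 7 genes had 17 starts. Of 21887 protein-coding genes on 21 chromosomes, the 4395 without strand in that table were not read. The strongest peak overlapping a window by at least 1 bp gave the gene's value. No test was made. The overlap code was tested on simulated peaks. Python 3.11.15, pandas 2.3.3 and numpy 2.4.6 were used. The text names all 7 genes, and, of the other methylation genes, those lacking H3K4me3, holding SUZ12 or H3K27me3, or at the extremes of N-MYC and EZH2. Hells, Zbtb24, Idh2 and Ogt were named after their values were seen. The genes and lists were chosen with earlier results of these data known. The N-MYC peak inside Dnmt3a, the site inside Tet1 and the Tet3 body were singled out after their values were seen. Alternatives were other windows, summits in the window, the 5′ end alone, stricter thresholds, equal list lengths and, added after seeing the data, the table's starts alone.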

Additional observations from a re-analysis of the deposited data

How the results depend on the processing

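Counts of members were recomputed for 14 results under 77 alternatives, of which 75 stayed within 1.5 times the reported count and 61 were identical. The 2 that moved were both SUZ12, at a start and over the body: with peaks of at least 4-fold enrichment only, the count fell from 1 to 0, since the Tet1 peaks lay at 3.75 and 3.31. With every list limited to 9798 peaks, EZH2 was called at 5 of 7 members, without Tet1 and Tet2, and H3K4me3 at 6, without Tet1. With the gene's 5′ end alone, H3K4me3 and EZH2 were each called at 5 and p300 at 4, without Dnmt1 and Dnmt3a, H3K27ac at 5 and N-MYC at 3, without Dnmt3a. N-MYC was called at 3 with the table's starts alone, as p300 was at 5 and EZH2 at 6, each without Tet3, whose 5′ end is not in that table. The p300 peak inside Tet1 was lost with a −log10 q of at least 5, with at least 4-fold enrichment and with equal list lengths. No paired analysis was possible because each antibody had 1 library. The number of reads is unknown, so the low H3K4me3, EZH2 and SUZ12 calls at Tet1, and missing calls such as N-MYC at Dnmt1, cannot be set against a known depth.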
